A study of Mus musculus with 8 samples.

Results

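The stem cell heptad is a group of transcription factors that bind together at regulatory elements of blood stem and progenitor cells, among them TAL1, LYL1, LMO2, GATA2, ERG, FLI1 and RUNX1. Their genes were examined here in MLL-AF9 cultures of mouse marrow in which deletion of Runx1 and Cbfb was induced or not, together with Ldb1 and Etv6, which are close partners of the group and no heptad members in the strict sense. The set held 8 of the 19938 genes tested, Tal1, Lyl1, Lmo2, Ldb1, Gata2, Erg, Fli1 and Etv6, each chosen by its symbol and each measured by 1 probe set of its own. Runx1 itself served only as a check of the labels.

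In this network TAL1 and LYL1 are basic helix-loop-helix proteins that bind E-box sequences as dimers with E proteins. LMO2 binds no DNA itself and bridges such dimers to GATA factors, while LDB1 holds LMO proteins together and brings distant elements into contact. ERG, FLI1 and ETV6 belong to the ETS family, whose proteins recognise a GGAA core, and ETV6 acts mostly as a repressor. In normal blood formation these genes are active in stem cells, and several stay active in megakaryocytes, mast cells or endothelium. RUNX1 binds DNA in a complex with CBFB, the product of the second targeted gene.

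The 8 arrays measured total RNA from cultures of c-Kit-positive marrow cells of mice with floxed Runx1 and Cbfb alleles. Every culture carried the leukaemia fusion MLL-AF9 and CreERT2, a Cre recombinase that 4-hydroxytamoxifen (4OHT) switches on, and grew in cytokine-enriched methylcellulose. The 4 cultures labelled Runx1Cbfb-KO had received 4OHT at 1 µM for 24 h, and the 4 Control cultures, labelled intact for both genes, had received ethanol. Both groups comprised 2 clones and 2 biological replicates per clone, so that the cultures form 4 sets of 1 culture labelled Runx1Cbfb-KO and 1 Control culture with the same clone and replicate number. No culture was given 4OHT without the floxed alleles, so 4OHT, active Cre and gene deletion cannot be told apart, and each clone stands for a single line. Values are probe-set signals on the log2 scale after robust multi-array averaging (RMA), which carry no detection call, and the signals of different genes are not set against each other. Array medians lay between 6.26 and 6.39, the highest in the array of clone 2 replicate 2 labelled Runx1Cbfb-KO, whose Control array had 6.29.

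The check of the targeted genes came first. Runx1 signal was 10.87 and 11.19 in clone 2 and 10.58 and 10.64 in clone 1 in the arrays labelled Runx1Cbfb-KO, against 10.31 and 10.71 in clone 2 and 10.05 and 10.12 in clone 1 in Control arrays, higher in 4 of 4 sets (difference 0.52 ± 0.036, SE; limma adjusted p = 1.64e-05). Cbfb averaged 9.75 ± 0.13 (SD, n = 4) in arrays labelled Runx1Cbfb-KO and 9.93 ± 0.078 (SD, n = 4) in Control arrays. Its set differences were all negative, at -0.17 and -0.27 in clone 2 and -0.21 and -0.078 in clone 1. The Cbfb difference of -0.18 ± 0.046 (SE) did not pass (limma adjusted p = 0.128). The Runx1 signal therefore ran opposite to its label. Probes of a whole-transcript probe set can lie outside the deleted exons, where they check nothing, and the cultures are called labelled Runx1Cbfb-KO throughout. Of the genes that mark myeloid progenitors, Mpo (12.93 to 13.18), Elane (13.27 to 13.36) and Hoxa9 (10.98 to 11.13) kept to narrow ranges over the 8 arrays, while 5 of the 14 on that list fell in the cultures labelled Runx1Cbfb-KO, among them Kit and Spi1 (0.471% of all genes were called lower). The mean signal of 10 neutrophil genes was 8.73 and 8.66 in the cultures of clone 2 replicate 1 labelled Runx1Cbfb-KO and Control, and between 7.37 and 7.76 in the other 6 arrays, so the set of clone 2 replicate 1 stood apart.

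Sequences from 250 bases before the annotated start were read for the genes on which the results turn and which the RefSeq promoter table holds, Erg and Etv6, whose signal differed between the clones, and Lyl1, which came nearest to a change. They are on build GRCm38.p6, 5′ to 3′ on the gene's strand. Capitals mark a match, on either strand, to AGGAAG, a form that ETS factors bind, or to AGATAA, which zinc finger factors such as GATA2 bind. Other sequences around a GGAA core were not marked, so lower-case letters do not show that ETS sites are absent. The table has 3 Erg windows, of which the middle one, chr16:95530366-95530615, held no match to either and is not printed. The other two Erg windows lie on the minus strand of chromosome 16 at chr16:95586594-95586843 and chr16:95459349-95459598, that of Etv6 on the plus strand at chr6:134035450-134035699 and that of Lyl1 on the plus strand at chr8:84701207-84701456.
Erg, far start: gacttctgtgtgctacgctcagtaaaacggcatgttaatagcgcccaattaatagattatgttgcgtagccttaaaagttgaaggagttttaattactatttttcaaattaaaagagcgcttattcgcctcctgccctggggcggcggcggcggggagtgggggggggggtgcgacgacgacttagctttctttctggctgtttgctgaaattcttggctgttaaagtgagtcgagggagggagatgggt
Erg, near start: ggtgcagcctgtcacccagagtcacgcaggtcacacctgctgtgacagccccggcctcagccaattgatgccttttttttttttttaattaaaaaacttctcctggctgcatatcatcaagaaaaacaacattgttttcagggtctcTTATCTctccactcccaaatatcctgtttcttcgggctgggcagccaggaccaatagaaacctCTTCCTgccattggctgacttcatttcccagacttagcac
Etv6: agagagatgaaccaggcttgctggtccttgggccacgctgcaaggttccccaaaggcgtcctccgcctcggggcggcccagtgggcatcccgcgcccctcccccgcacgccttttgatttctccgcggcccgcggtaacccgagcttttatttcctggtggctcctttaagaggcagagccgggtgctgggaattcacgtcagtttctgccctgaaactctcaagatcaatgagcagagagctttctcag
Lyl1: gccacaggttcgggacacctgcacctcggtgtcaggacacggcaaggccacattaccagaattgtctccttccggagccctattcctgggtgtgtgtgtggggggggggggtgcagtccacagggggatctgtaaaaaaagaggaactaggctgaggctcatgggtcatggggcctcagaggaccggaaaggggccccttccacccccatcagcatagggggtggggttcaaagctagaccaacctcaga

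Over 12 windows of the 6 genes found in that table (Tal1, Lyl1, Ldb1, Gata2, Erg and Etv6), the RUNX letters TGTGGT, or ACCACA on the other strand, were present in 0, against 14.05% of all 32851 windows of this length. The letters AGATAA occurred in 3 of the 12 (9.99% of all windows), in 1 window each of Erg, Ldb1 and Tal1. The ETS letters AGGAAG occurred in 2 (29.48% of all), in 1 window each of Erg and Ldb1. The E-box letters CAGATG (14.44%) and CAGCTG (13.0%) occurred in none. The match to AGATAA in the near Erg window begins 103 bases before the start and the ETS match begins 40 bases before it, without overlap. Such matches describe the letters of these windows. Other forms of these sites, such as other sequences around a GGAA core, were not searched for, and enhancers were not analysed here.

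None of the 8 genes passed the test of arrays labelled Runx1Cbfb-KO against Control arrays, where 0.953% of all genes did (190 of 19938, 0.481% higher and 0.471% lower; limma with the set as a block, Benjamini-Hochberg adjusted p under 0.05). In the same limma fit 2 of the 8, Lyl1 and Ldb1, had an unadjusted p under 0.05, a level that 6.47% of all genes reached. The log2 differences of the 8 ran from -0.085 for Gata2 to 0.16 for Lyl1, with a median of 0.030 and a median size of 0.049. Over all genes the median was 0.00018 and the median size 0.042. In 4 of the 8, namely Lyl1, Ldb1, Gata2 and Fli1, all 4 sets had the same sign, as in 13.1% of all genes, and in none of the 8 did the 4 arrays labelled Runx1Cbfb-KO lie clear of the 4 Control arrays, as they did for 1.17% of all genes. These are bulk cultures, in which fewer cells of a type and less RNA per cell cannot be told apart.

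**Figure D1:**
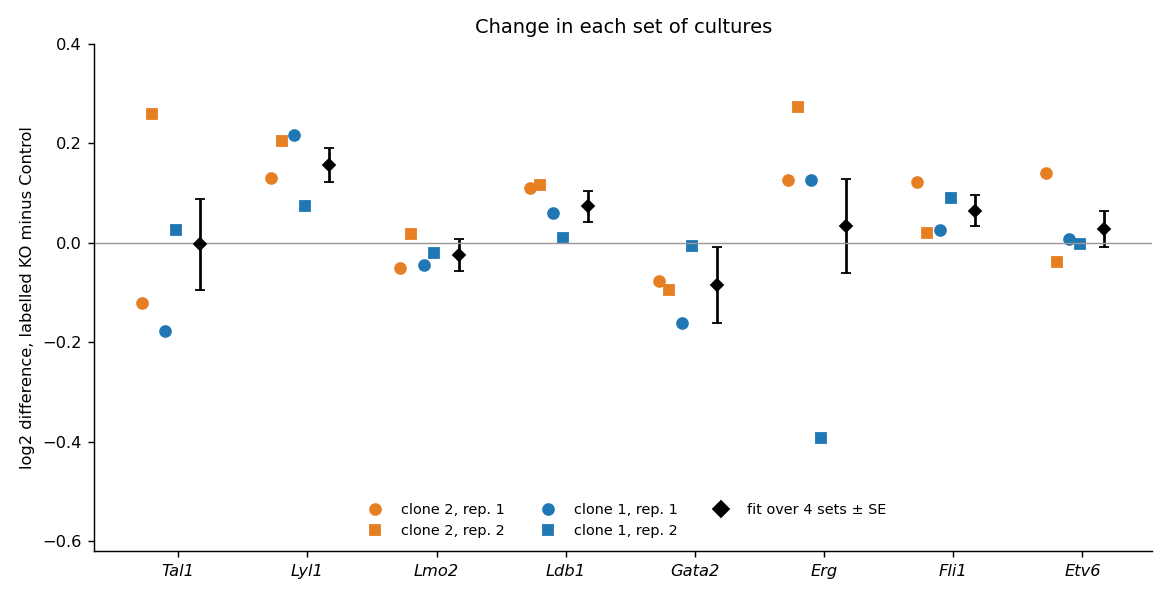
Log2 difference of each gene, labelled Runx1Cbfb-KO minus Control, in each of the 4 sets (circles and squares, coloured by clone), with the estimate over the sets and its moderated SE (diamonds). The 4 Lyl1 points all lie above 0, between 0.074 and 0.22, while those of Erg and Tal1 fall on both sides of 0.

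Lyl1 came nearest to the threshold. In clone 2 its signal was 11.33 and 11.36 in the arrays labelled Runx1Cbfb-KO, against 11.20 and 11.16 in Control arrays, and in clone 1 it was 11.15 and 11.19 in the arrays labelled Runx1Cbfb-KO, against 10.93 and 11.11 in Control arrays. Each array labelled Runx1Cbfb-KO lay above the Control array of its set, and over both clones the groups overlapped. The difference was 0.16 ± 0.034 (SE, n = 4 sets), or 1.11-fold, with a 95% interval from 0.083 to 0.23 and a limma adjusted p of 0.0530. It passed in 5 of 17 alternative treatments of the data, among them array weights (adjusted p = 0.0388), repeated quantile normalization (0.0419) and the fit without clone 2 replicate 2 (0.0411), and it was above 0 in all 17. The limma adjusted p was 1 without the pairing, 0.694 with each array centred on its median, and 0.149 without the set of clone 2 replicate 1. Leaving out clone 1 replicate 1 or 2 gave 0.166 and 0.106.

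Its relative Tal1, which encodes a helix-loop-helix factor named for T cell leukaemia, showed no common direction. In clone 2 its signal was 6.21 and 6.52 in the arrays labelled Runx1Cbfb-KO, against 6.33 and 6.26 in Control arrays, and in clone 1 it was 6.09 and 6.24 in the arrays labelled Runx1Cbfb-KO, against 6.27 and 6.21 in Control arrays. These values lay near the array medians of 6.26 to 6.39, and without a detection call Tal1 is not shown to be above background. The sets of replicate 1 had negative and those of replicate 2 positive differences, and the estimate was -0.0034 ± 0.091 (SE, n = 4 sets), with an interval from -0.20 to 0.19. The largest set difference, 0.26 in clone 2 replicate 2, had the opposite sign to that of replicate 1 of the same clone. In clone 2 replicate 2 the array labelled Runx1Cbfb-KO also had the highest median of the 8, 6.39 against 6.29 in its Control array.

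Among the adaptors, Ldb1 signal in the arrays labelled Runx1Cbfb-KO was 11.45 and 11.55 in clone 2, against 11.35 and 11.43 in Control arrays, and 11.23 and 11.23 in clone 1, against 11.17 and 11.22 in Control arrays. The difference of 0.074 ± 0.031 (SE, n = 4 sets) was positive in 4 of 4 sets and did not pass (limma adjusted p = 0.654). Lmo2 differed by -0.025 ± 0.031, with an interval from -0.093 to 0.044, the values in each array being given with the clone difference. Gata2, which encodes the GATA factor of stem cells and mast cells, differed by -0.085 ± 0.076 and was negative in 4 of 4 sets, at -0.077 and -0.096 in clone 2 and -0.16 and -0.0073 in clone 1 (limma adjusted p = 1).

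For the ETS genes the estimates were 0.065 ± 0.031 for Fli1, 0.027 ± 0.037 for Etv6 and 0.034 ± 0.095 for Erg (SE, n = 4 sets). Fli1, which encodes the closest relative of ERG, gave 11.44 and 11.36 in clone 2 and 11.34 and 11.33 in clone 1 in the arrays labelled Runx1Cbfb-KO, against 11.32 and 11.34 in clone 2 and 11.31 and 11.24 in clone 1 in Control arrays. All 4 sets were positive, from 0.020 to 0.12, and the groups overlapped (limma adjusted p = 0.823). Erg differed by 0.13 and 0.27 in the sets of clone 2 and by 0.13 and -0.39 in those of clone 1, and its interval of -0.17 to 0.24 was the widest of the 8. No test of whether the change differs between the clones passed for any of the 8, where 0.01% of all genes passed (2 of 19938), and none of the 8 had an unadjusted p under 0.05 in it, against 1.97% of all genes. The largest such difference was that of Erg, 0.33 ± 0.17 (SE; clone 2 minus clone 1), with a limma adjusted p of 1.00 and an unadjusted p of 0.0753.

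The clones differed in more of these genes than the groups did. Among arrays labelled Runx1Cbfb-KO 4 of the 8 were higher in clone 2, Erg, Lmo2, Etv6 and Ldb1, against 5.25% of all genes called in either direction (1047 of 19938) and 1.82% called higher. Among Control arrays 3 of the 8, Erg, Lmo2 and Etv6, were higher in clone 2, against 3.97% of all genes called (792 of 19938), with 1.6% called higher and 2.37% lower. Among Control arrays, too, 5 of the 8 had an unadjusted limma p under 0.05, against 12.3% of all genes. In 5 of the 8 (Lmo2, Ldb1, Gata2, Erg and Etv6) the 4 arrays of clone 2 all lay above the 4 of clone 1, and 19.7% of all genes had no overlap between the clones in one direction or the other. All 8 differences were above 0 in both groups, which come from the same 2 clones. The share of all genes above 0 in both was not counted. Among Control arrays the differences of Tal1 (0.057 ± 0.13, SE) and Fli1 (0.057 ± 0.061) were smaller than their SE. The median size among Control arrays was 0.25 for the 8 and 0.096 for all genes. The p-values measure the spread between cultures of these 2 clones and say nothing of further clones.

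**Figure D2:**
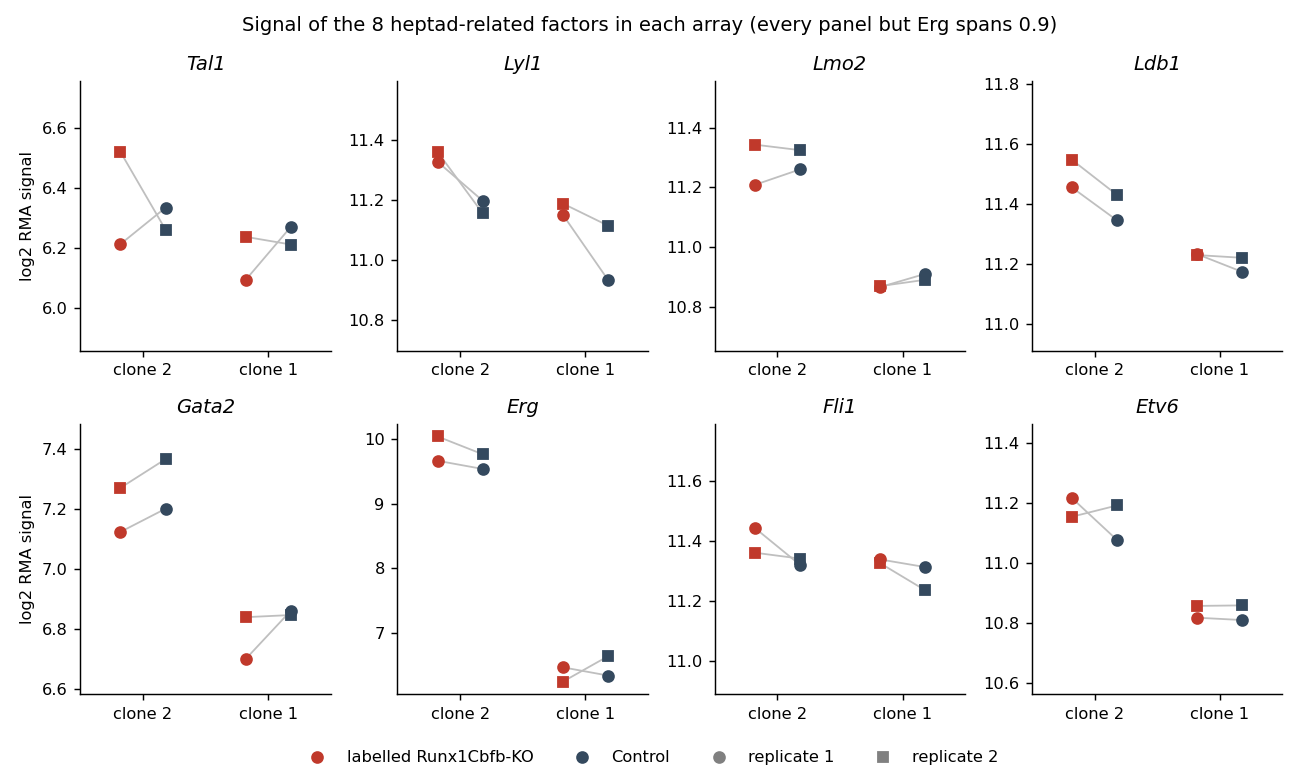
Log2 RMA signal of each gene in each array, with the arrays labelled Runx1Cbfb-KO left of their Control arrays within each clone, and a line joining the cultures of a set. Erg lies between 9.53 and 10.04 in clone 2 and between 6.25 and 6.64 in clone 1, and every other panel spans the same height.

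Of the 8, Erg had the largest difference between the clones. In clone 2 its signal was 9.66 and 10.04 in the arrays labelled Runx1Cbfb-KO and 9.53 and 9.76 in Control arrays. In clone 1 it was 6.47 and 6.25 in the arrays labelled Runx1Cbfb-KO and 6.34 and 6.64 in Control arrays. All 4 clone 2 values lay above all 4 clone 1 values, whichever group they came from. Among arrays labelled Runx1Cbfb-KO the difference, clone 2 minus clone 1, was 3.49 ± 0.16 (SE, n = 2 arrays per clone), or 11.2-fold (limma adjusted p = 4.36e-07). Among Control arrays it was 3.16 ± 0.16, or 8.91-fold (limma adjusted p = 9.94e-07). Of all 19938 genes, 31 differed more between the clones in size among Control arrays, and Erg ranked 14 from the top of those higher in clone 2. It passed in 15 of 15 alternatives, from 3.01 to 3.49. The clone 1 values lay near the array medians of 6.26 to 6.39, and without a detection call Erg is not shown to be above background there. The folds and the rank are those of the signals, and the folds are lower bounds if that signal is background.

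The adaptor gene Lmo2 showed a smaller step of the same sign. Its signal in clone 2 was 11.21 and 11.34 in the arrays labelled Runx1Cbfb-KO and 11.26 and 11.32 in Control arrays, and in clone 1 it was 10.87 and 10.87 in the arrays labelled Runx1Cbfb-KO and 10.91 and 10.89 in Control arrays. The difference was 0.41 ± 0.068 (SE, n = 2 arrays per clone) among arrays labelled Runx1Cbfb-KO (limma adjusted p = 0.00536) and 0.39 ± 0.068, or 1.31-fold, among Control arrays (0.00797). Leaving out a set ended the call among Control arrays for clone 1 replicate 1 (adjusted p = 0.0586), clone 1 replicate 2 (0.0653) and clone 2 replicate 2 (0.0804), and kept it for clone 2 replicate 1 (0.0317), with differences from 0.36 to 0.42 over the 4.

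Etv6, needed for stem cells to persist in adult mouse marrow, gave 11.22 and 11.16 in clone 2 and 10.82 and 10.86 in clone 1 among the arrays labelled Runx1Cbfb-KO. Among Control arrays it gave 11.08 and 11.19 in clone 2 and 10.81 and 10.86 in clone 1. The clones did not overlap, and the difference of 0.35 ± 0.068 (SE, n = 2 arrays per clone) passed among arrays labelled Runx1Cbfb-KO (limma adjusted p = 0.0138), as did that of 0.30 ± 0.068, or 1.23-fold, among Control arrays (0.0358). The call among Control arrays ended without any 1 of the 4 sets (adjusted p from 0.0796 without clone 2 replicate 1 to 0.317 without clone 2 replicate 2, and 0.242 and 0.114 without replicates 1 and 2 of clone 1). It also ended without the variance trend (0.122), with all probe sets tested (0.103) and with each array centred on its median (0.260).

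Gata2 differed by as much as Lmo2, with a larger error. Its signal in clone 2 was 7.12 and 7.27 in the arrays labelled Runx1Cbfb-KO and 7.20 and 7.37 in Control arrays, and in clone 1 it was 6.70 and 6.84 in the arrays labelled Runx1Cbfb-KO and 6.86 and 6.85 in Control arrays. The difference of 0.43 ± 0.12 (SE, n = 2 arrays per clone) did not pass among arrays labelled Runx1Cbfb-KO (limma adjusted p = 0.0867), nor that of 0.43 ± 0.12 among Control arrays (0.105). Over the arrays of both groups together it did (0.429, adjusted p = 0.00989). That fit counts both cultures of a set as independent, although they deviated together within a clone (r = 0.436 and 0.249). Its errors and p-values can therefore be too small. Ldb1 differed by 0.27 ± 0.063 among arrays labelled Runx1Cbfb-KO (limma adjusted p = 0.0331) and by 0.19 ± 0.063 among Control arrays (0.173). Over both groups it differed by 0.231 (0.00712), with the same limit. Lyl1 (0.15 ± 0.072), Tal1 (0.057 ± 0.13) and Fli1 (0.057 ± 0.061) did not pass among Control arrays. Over the 8 arrays Fli1 ran from 11.24 to 11.44 and Erg from 6.25 to 10.04.

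**Figure D3:**
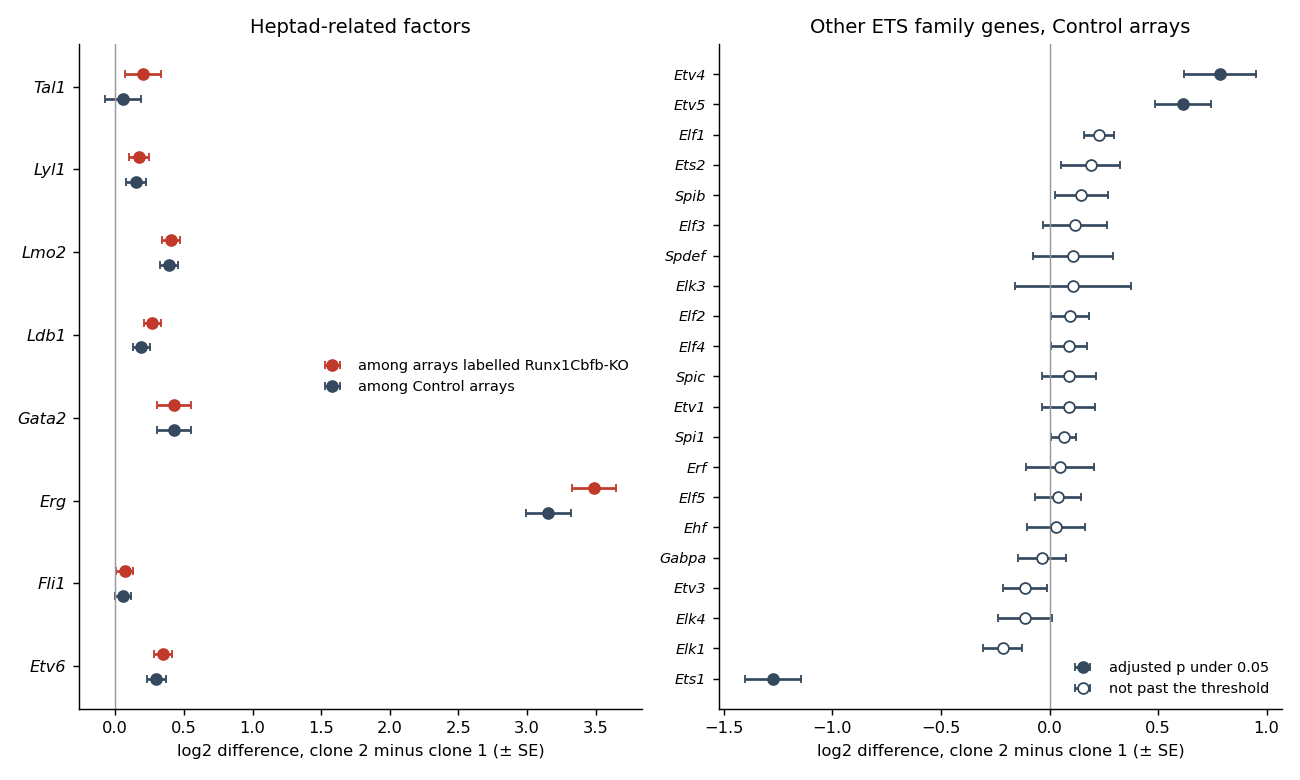
Log2 difference, clone 2 minus clone 1, with its moderated SE, for the 8 genes among arrays labelled Runx1Cbfb-KO and among Control arrays (left), and for 21 other ETS family genes among Control arrays (right; filled points passed). Erg stands at 3.49 among arrays labelled Runx1Cbfb-KO and at 3.16 among Control arrays, and of the other ETS genes Etv4 and Etv5 lie above 0 and Ets1 below.

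Other genes of the network were examined as lists. Of 21 measured ETS family genes outside the 8, 2 were higher and 1 lower in clone 2 among Control arrays, and 18 did not pass (3.97% of all genes called). Among arrays labelled Runx1Cbfb-KO Etv5, Ets1 and Elf1 (0.28, adjusted p = 0.0480) passed and Etv4 did not (0.64, adjusted p = 0.0538). The 2 higher among Control arrays were Etv4 (0.79 ± 0.17, SE, adjusted p = 0.0240) and Etv5 (0.62 ± 0.13, adjusted p = 0.0236), which encode closely related activators that growth factor signalling induces. In clone 1 Control arrays Etv4 gave 6.05 and 6.12 and Etv5 gave 6.52 and 6.35, near or below the array medians. Neither is shown to be above background there. The third was Ets1, a factor of lymphocytes and endothelium, at -1.27 ± 0.13 (limma adjusted p = 2.35e-04), which is 2.42-fold lower. Ets1 signal was 8.30 and 7.93 in clone 2 and 9.43 and 9.44 in clone 1 among the arrays labelled Runx1Cbfb-KO, and it was 8.21 and 8.24 in clone 2 and 9.40 and 9.59 in clone 1 among Control arrays. Ets1 was thus lower in clone 2 where Erg was higher, in both groups. In the cultures labelled Runx1Cbfb-KO, 1 of the 21 fell, Spi1, which encodes the myeloid ETS factor PU.1 (-0.14 ± 0.030, adjusted p = 0.0465), and 20 did not pass.

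Of 18 partners of the LMO2 and LDB1 complex, 1 fell in the cultures labelled Runx1Cbfb-KO and 17 did not pass (0.471% of all genes called lower). The one was Cbfa2t3, whose product, the corepressor ETO2, binds TAL1 complexes. Its signal was 8.70 and 8.85 in clone 2 and 8.45 and 8.69 in clone 1 in the arrays labelled Runx1Cbfb-KO, against 8.99 and 9.16 in clone 2 and 8.85 and 9.08 in clone 1 in Control arrays, a difference of -0.35 ± 0.055 (SE, n = 4 sets; limma adjusted p = 0.00783). Between the clones Lmo1, a paralog of Lmo2 (-0.72 ± 0.13, adjusted p = 0.00981), and Tcf12, which encodes the E protein HEB, a dimer partner of TAL1 and LYL1 (-0.36 ± 0.073, adjusted p = 0.0179), were lower in clone 2 among Control arrays. Both passed among arrays labelled Runx1Cbfb-KO too, as did Gata3 (-0.88, adjusted p = 0.00665). Gata3 signal there was 6.04 and 6.44 in clone 2, near or below the array medians, so Gata3 is not shown to be above background in that clone. The signals of Lmo2 and Lmo1 differed in opposite directions between the same clones. Lmo1 signal in Control arrays was 5.80 and 5.57 in clone 2 and 6.41 and 6.40 in clone 1. It lay near or below the array medians of 6.26 to 6.39, so Lmo1 is not shown to be above background. Of 8 genes for ID proteins and related dimer partners none passed for the change or between the clones, Id2 having the smallest p in both (-0.20 ± 0.071 for the change and 0.24 ± 0.11 between clones among Control arrays). Of 14 measured corepressor and coactivator genes none passed for the change, with Tle1 at 0.15 ± 0.084. Between the clones none passed among Control arrays, where Kat2b, an acetyltransferase gene, differed by -0.48 ± 0.12 (adjusted p = 0.0524), but Kat2b was lower in clone 2 among arrays labelled Runx1Cbfb-KO (-0.61, adjusted p = 0.0132).

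The next list, genes taken as targets of the heptad in stem and progenitor cells, carries no cited source, and binding was not examined. Of its 28 measured genes, 4 fell in the cultures labelled Runx1Cbfb-KO, none rose and 24 did not pass, with a median difference of -0.036 (all genes 0.00018, with 0.471% called lower). They were the growth factor receptor gene Kit (-0.36 ± 0.051, adjusted p = 0.00404), the survival gene Bcl2 (-0.31 ± 0.064, adjusted p = 0.0429), and Cbfa2t3 and Spi1, which stand in the lists above too. Between the clones 2 were higher and 1 lower in clone 2 among Control arrays. Cd34, a surface marker of stem and progenitor cells, was 11.11 and 11.55 in clone 2 and 5.77 and 5.92 in clone 1 among Control arrays, a difference in signal of 5.48 ± 0.17 (limma adjusted p = 3.19e-08). The clone 1 values lay below the array medians, so Cd34 is not shown to be above background there, and the difference is a lower bound if it is not. Bcl2 was higher by 0.51 ± 0.11 (0.0244), and Angpt1, a ligand of the TIE2 receptor, differed by -0.65 ± 0.16 (0.0467). In Control arrays Angpt1 was 5.71 and 5.96 in clone 2 and 6.33 and 6.63 in clone 1. These values lay near or below the array medians, so Angpt1 is not shown to be above background. Among arrays labelled Runx1Cbfb-KO Cd34 and Angpt1 passed again and Bcl2 did not (0.36, adjusted p = 0.0935).

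**Figure D4:**
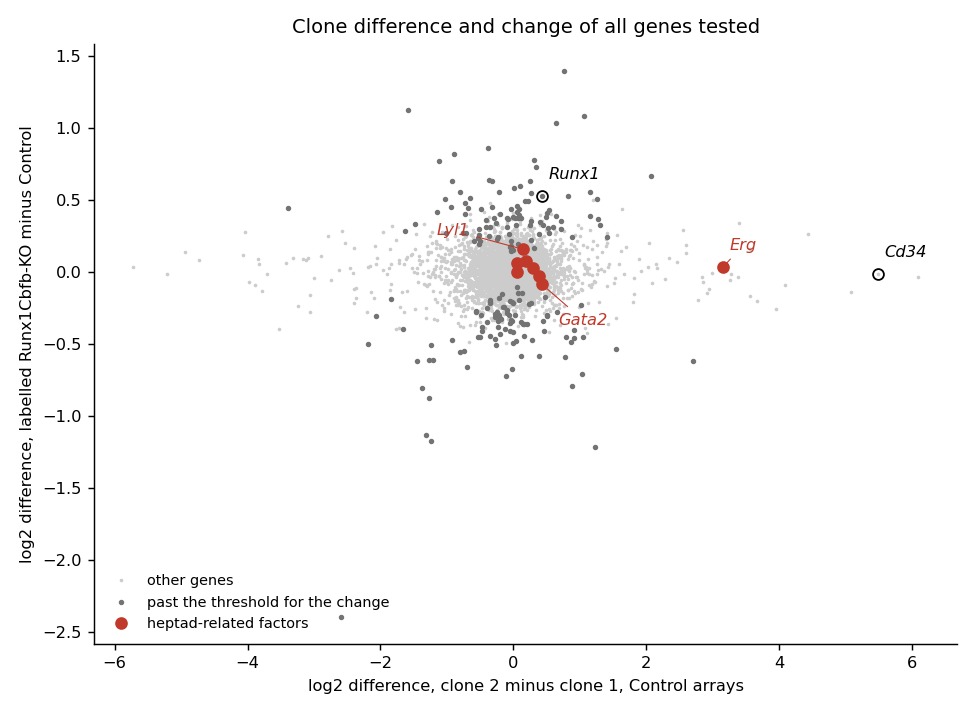
Each point is 1 of 19938 genes, placed by its log2 difference between the clones (clone 2 minus clone 1, Control arrays) and by its log2 difference between groups (labelled Runx1Cbfb-KO minus Control). The 8 genes (red) lie within 0.16 of 0 on the vertical axis, and Erg stands out at 3.16 on the horizontal one, on the same side as Cd34 at 5.48, both as differences in signal from clone 1 values near or below the array medians.

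Marker genes of other cell types, and of the myeloid progenitors themselves, were read beside the clone differences, with values from Control arrays unless named otherwise. Of all genes, 1.6% were called higher and 2.37% lower in clone 2 among Control arrays. Of 14 myeloid progenitor genes 3 were lower in clone 2, the Fc receptor gene Fcgr3 (-1.04 ± 0.11), the myeloid factor gene Cebpa (-0.70 ± 0.12) and Ptprc, which encodes CD45 (-0.40 ± 0.076). Of 10 neutrophil genes Cebpe, a factor of granulocyte maturation, was higher (0.44 ± 0.084). Of 8 measured stem cell markers Cd34 passed, and Procr, Slamf1, Hlf, Mecom, Mllt3, Fgd5 and Tek did not. The mean signal of these 8 was 6.36 to 6.59 in clone 2 and 5.58 to 5.75 in clone 1 in cultures labelled Runx1Cbfb-KO, and 6.42 to 6.51 in clone 2 and 5.66 to 5.67 in clone 1 in Control cultures. Most of that gap was Cd34, since the other 7 genes differed by -0.13 to 0.33.

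Of 7 megakaryocyte genes the platelet glycoprotein gene Gp9 was higher in clone 2 (0.70 ± 0.13), and of 10 endothelial genes the receptor gene Tie1 was higher (0.95 ± 0.18) and Pecam1 lower (-1.04 ± 0.13). Of 10 mast cell genes Ms4a2, which encodes a chain of the IgE receptor, was lower (-0.96 ± 0.17). Of 8 monocyte genes the receptor gene Csf1r was higher (0.70 ± 0.13) and the macrophage marker gene Adgre1 lower (-1.23 ± 0.16), and none of 7 erythroid and 8 lymphoid genes passed. All of the markers that passed among Control arrays passed in the same direction among arrays labelled Runx1Cbfb-KO. There Eng of the endothelial list (0.60, adjusted p = 0.0191) and Cxcr2 of the neutrophil list (0.57, adjusted p = 0.0366) were also higher in clone 2, and Ccr2 of the monocyte list was lower (-1.26, adjusted p = 0.00402). Over all arrays Cxcr2 (4.46 to 5.40) and Ms4a2 (5.10 to 6.52) lay near or below the array medians of 6.26 to 6.39. In clone 1 so did Csf1r (5.91 to 6.03), Eng (5.85 to 6.03), Tie1 (6.21 to 6.44) and Gp9 (6.52 to 6.75). None of these is shown to be above background there.

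Between the arrays labelled Runx1Cbfb-KO and Control arrays none of the stem cell, megakaryocyte, endothelial, erythroid, monocyte and lymphoid genes passed. Hdc of the mast cell list rose (0.63 ± 0.065, limma adjusted p = 5.47e-04), and 2 of 10 neutrophil genes fell. Of all genes, 0.481% were called higher and 0.471% lower. The part of such cells in the signals of the 8 genes was not tested.

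Genes with the most similar pattern were looked up for the 4 of the 8 that varied most over the arrays, by Pearson's r over the 8 arrays among 2994 genes (2995 for Etv6) with an SD of at least 0.2. The arrays of each of these genes part by clone, so the clone difference enters r. For Erg the most similar were Cd79b, a chain of the B cell receptor (r = 0.999), the DNA repair gene Xrcc3 (0.997) and Ikzf2, which encodes the zinc finger factor Helios (0.997). Cd79b signal was 9.39 and 9.69 in clone 2 and 6.34 and 6.38 in clone 1 among the arrays labelled Runx1Cbfb-KO, and 9.27 and 9.65 in clone 2 and 6.33 and 6.60 in clone 1 among Control arrays. For Gata2 they were Ckap4 (0.994), Spint1 (0.992) and Oaf (0.989). For Lmo2 they were Acp5, the acid phosphatase of osteoclasts and macrophages (0.995), the protease gene Adamts1 (0.995) and Ppm1j (0.993), and for Etv6 they were Cyth3 (0.996), Impdh1, an enzyme gene of guanine nucleotide synthesis (0.990), and Ctdspl (0.989). All 12 were higher in clone 2 by the test among Control arrays, and none passed between the arrays labelled Runx1Cbfb-KO and Control arrays. With the mean of each clone removed, r over the 12 pairs ran from 0.586 for Erg with Ikzf2 to 0.967 for Gata2 with Ckap4. The genes were picked by r over the same arrays, so these values test nothing.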

How the data were processed

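Expression was measured on 8 whole-transcript Affymetrix arrays from 300 ng of total RNA each. The deposited values are log2 probe-set signals that the authors made with RMA, per the submitters' processing notes. Neither its version nor the chip definition was given in these sources, and base 2 was read from the range of 2.60 to 13.77. Of 35556 probe sets, 21789 had 1 symbol in the platform annotation, and the brightest per gene gave 19938 genes.

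Fits used limma 3.58.1 in R 4.3.3 with a variance trend. Tests were two-sided, and p-values were adjusted by Benjamini-Hochberg across the 19938 genes (threshold 0.05). The change was fitted with the set (clone and replicate number) as a block, since the series' design text compares 4 sets; it names 2 experiments without tying them to replicate numbers, so pairing by number comes from the titles. Paired cultures deviated together from their group means (r from 0.724 to 0.817; 0.436 and 0.249 after removal of clone means). Clones were compared without that block, with 1 mean for each clone and group. The SE is moderated, and n beside it counts sets or arrays. The fits were tested on simulated data. The clone comparison was simulated without deviations shared within a set, so the effect of such deviations on it was not tested. Intervals around a log2 difference cover this spread only, and the number of arrays limits the precision.

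The 8 genes and all lists were chosen with earlier results of these data known. The genes named were these 8, up to 4 per list past the threshold by smallest p (else the 1 with the smallest p), and the 3 most similar genes for 4 members. Names and promoters came from RefSeq, GRCm38.p6. Genes named beyond that, such as those past the threshold only among arrays labelled Runx1Cbfb-KO, were chosen after their values were seen. Alternatives covered the pairing, the variance model, array weights, probe-set choice, a level filter, normalization and leaving out each set.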

Additional observations from a re-analysis of the deposited data

How the results depend on the processing

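Each result was recomputed under 12 to 17 alternatives. Of the 8 genes, none passed for the change in the fits with no replicate block, with the clone alone or the clone and the replicate number in its place, without the variance trend, with robust moderation, with probe sets averaged, with all probe sets tested, with centring and within replicate number 2. Lyl1 alone passed, so that the count was 1, with array weights, among genes above the median level (where Tal1 was not tested), with repeated quantile normalization, within replicate number 1 and without clone 2 replicate 2; leaving out a set gave 0 to 1. Directions turned, always without a call, for Erg (-0.084 with array weights, -0.059 within replicate number 2, -0.046 to 0.18 leaving out a set), Tal1 (0.14 within replicate number 2, -0.091 to 0.054 leaving out a set) and Etv6 (-0.020 within replicate number 2, -0.011 to 0.049 leaving out a set). The count over all genes for the change was 190, and 0 without the replicate block or with all probe sets tested (317 and 1834 at an unadjusted p under 0.05), 23 with the clone alone, 78 with the clone and the replicate number, 13 without the variance trend, 388 with array weights, 620 and 443 within replicate numbers 1 and 2, and 98 to 418 leaving out a set.

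Between the clones the count of the 8 was 3, and 5 over both groups, 5 with array weights and 1 to 2 leaving out a set, which leaves a cell with 1 array that is assumed to vary like the others; over all genes it was 792, and 2049 over both groups, 1330 with the replicate number as a block, 1599 with array weights, 477 with all probe sets tested and 385 to 588 leaving out a set. With that block 4 of the 8 passed, Gata2 being the addition (adjusted p = 0.0451). The fit over both groups counts both cultures of a set as independent, so its counts can be too high. For the difference in change between clones none of the 8 passed in any of these alternatives; the count over all genes was 2, and 0 with no replicate block, without the variance trend or with all probe sets, 4 with array weights, 1 above the median level, 12 with centring and 5 to 224 leaving out a set. That difference turned sign for Gata2 with quantile normalization (0.015; -0.079 to 0.074 leaving out a set), for Fli1 with centring (-0.0015; -0.038 to 0.065), and leaving out a set for Lyl1 (-0.050 to 0.094), Etv6 (-0.041 to 0.14), Tal1 (-0.046 to 0.34) and Lmo2 (-0.019 to 0.051). The cause of these shifts was not tested.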
